A study of Mus musculus with 9 samples.

Results

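The collagen genes of mouse cardiosphere-derived cells (CDCs) were examined, taken as every protein-coding gene of the deposited table whose symbol is Col, a number, a and a second number. This rule gave 44 genes of 54532. RNA was sequenced from 3 libraries of each of 3 groups, all of heart ventricle origin in C57BL/6 mice according to the labels, while the study's methods name the epicardium of the ventricle. Primary CDCs are cells grown out of cardiospheres, floating clusters formed by cells that leave cultured pieces of heart. iCDCs are CDCs immortalized by hTERT, the human telomerase reverse transcriptase, delivered by lentivirus. They were selected with puromycin and harvested at passage 30. SB431542-treated iCDCs are, by the labels, passage 30 iCDCs given SB431542, an inhibitor of the type I receptor of transforming growth factor β (TGF-β), for 3 days, and they carry the hTERT lentivirus too. The study's methods name instead an epithelial clone derived from SB431542-treated primary cells. For such clones its discussion gives a time longer than 3 days. Whether that clone is the material of these libraries cannot be told here, and the groups follow the labels. Immortalization, selection and time in culture cannot be told apart between primary CDCs and iCDCs, and the iCDCs are described as 1 cell line. The study's methods call the replicates of a condition biological, and do not say whether the libraries here came from separate cultures or animals, so the p-values measure the spread between these libraries.

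Collagens are secreted proteins of 3 chains wound into a triple helix, and each chain has its own gene. Fibrillar collagens form the tension-bearing fibers of tendon, bone and the heart's interstitium. Type IV collagen forms the sheet-like network of basement membranes, type VI forms beaded filaments near the cell surface, and the collagens called FACIT sit on the surface of fibrils. Fibroblasts make most of the heart's collagen, and TGF-β signaling is a known inducer of fibrillar collagen genes.

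Total counts per library were 16568306 to 23951392. The third iCDC library and the second library of SB431542-treated iCDCs stood apart: the SD of the log2 ratio between libraries was 0.470 to 0.474 in pairs with the former and 0.331 between the other iCDC libraries, and 0.611 to 0.617 in pairs with the latter and 0.302 between the other treated libraries. Primary CDC pairs gave 0.261 to 0.277. Cell type markers were summed as FPKM (fragments per kilobase of gene length, divided by a constant of each library). That constant was near the library's total count but not equal to it. The marker genes named here were picked after their values were seen. The 5 endothelial markers together reached at most 0.165 FPKM and the 3 neural and Schwann markers at most 0.176 FPKM. The 4 hematopoietic markers reached at most 2.04 FPKM, nearly all of it Cd68, a lysosomal protein of macrophages, which was at 0.673 to 2.04 FPKM over all libraries and fell by 0.86 on the log2 scale in SB431542-treated iCDCs against primary CDCs (SE 0.22, adjusted p = 0.0220). The other hematopoietic markers had at most 4 counts in a library, and one of them, Adgre1, had none. The 4 cardiomyocyte markers summed to 0.437 to 0.668 FPKM in primary CDCs, 1.12 to 1.68 in iCDCs and at most 0.382 in treated iCDCs, mostly Tnnt2, a troponin, which fell by 3.07 with SB431542 against iCDCs (SE 0.48, adjusted p = 0.00378). The 6 epicardial and mesothelial markers summed to 20.3 to 21.3 FPKM in primary CDCs, 19.3 to 25.8 in iCDCs and 26.4 to 44.1 in treated iCDCs, mostly Tbx18, an epicardial transcription factor whose log2 fold change was 0.65 against iCDCs (SE 0.23, adjusted p = 0.0626). Of the same list, Upk3b, a mesothelial membrane protein, rose by 3.45 against iCDCs (SE 0.35, adjusted p = 0.000912) and Wt1, a transcription factor of the epicardium, rose by 4.40 (SE 0.78, adjusted p = 0.00615), from at most 0.166 and 0.0196 FPKM in iCDCs to at most 1.36 and 0.396 FPKM in treated iCDCs. Both had enough counts for a test only in the treated libraries. Msln, Lrrn4 and Upk1b had too few counts to be tested against iCDCs. Lrrn4 was at 0.0525 to 0.147 FPKM in iCDCs and 0.0614 to 0.166 in treated iCDCs. Upk1b was at 0.451, 0.146 and 0.280 FPKM in iCDCs and 0.218, 1.55 and 0.185 in treated iCDCs. Msln was at 0.141, 0.0863 and 0 FPKM and at 0.135, 0.405 and 0.288, respectively. The 5 fibroblast and mesenchyme markers summed to 910 to 943 FPKM in primary CDCs, 1073 to 1334 in iCDCs and 748 to 859 in treated iCDCs, most of it Vim. Vim fell by 0.64 with SB431542 against iCDCs (SE 0.15, adjusted p = 0.0169, edgeR). The rest of this list rose in the same comparison (edgeR). Pdgfra rose by 0.96 (adjusted p = 0.00180), Pdgfrb by 1.23 (adjusted p = 0.00902), Tcf21 by 1.47 (adjusted p = 0.00565) and Dcn by 4.83 (adjusted p = 0.00205). Of the 5 epithelial markers, Krt19 alone exceeded 1 FPKM. The 3 CDC surface markers summed to 256 to 259 FPKM in primary CDCs, 283 to 301 in iCDCs and 207 to 246 in treated iCDCs. Among them, Cd44 fell by 1.66 with SB431542 against iCDCs (SE 0.28, adjusted p = 0.00489, edgeR). Eng (-0.17, adjusted p = 0.397) and Thy1 (-0.10, adjusted p = 0.608) did not pass. The 3 smooth muscle markers summed to 720 to 742 FPKM in primary CDCs, 815 to 1918 in iCDCs and 139 to 329 in SB431542-treated iCDCs, nearly all of it Acta2. Decorin (Dcn), a fibroblast proteoglycan that binds collagen, was at 0.390 to 0.903 FPKM in primary CDCs and iCDCs and at 17.4, 3.43 and 18.7 FPKM in the treated libraries. The part of a changed makeup of cells in the collagen results was not tested, and in bulk RNA fewer cells of a type and less RNA per cell cannot be told apart.

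Collagen transcripts took 1.35 to 1.39% of all counts in primary CDCs, 1.13 to 1.29% in iCDCs and 0.819 to 1.54% in SB431542-treated iCDCs, where the second library was the lowest. Of the 44 genes, 15 averaged 10 FPKM or more in a group, 19 averaged 1 or more, and 10 had at most 3 counts in every library. Col9a1, Col9a2 and Col26a1 had no count in any library, and a count of 0 allows up to 3 counts in a library of this depth. The filter on low counts let 24 genes into at least 1 comparison and kept 20 out of all of them. Those 20 reached at most 84 counts and 0.683 FPKM. This maximum belonged to Col14a1, a FACIT collagen named after its values were seen, with 84, 7 and 78 counts in the treated libraries against 9, 6 and 7 in primary CDCs and 1, 0 and 3 in iCDCs. The most abundant collagen in each group was Col1a1, at rank 43, 68 and 44 by mean FPKM among 22046 protein-coding genes in primary CDCs, iCDCs and SB431542-treated iCDCs. The plot of levels by library shows the 15 abundant genes.

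**Figure D1:**
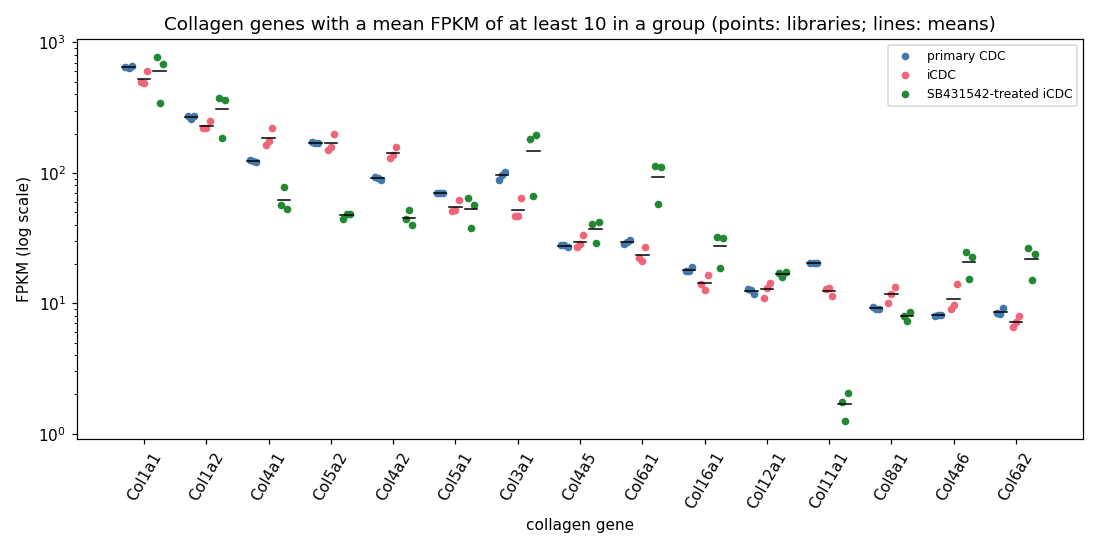
FPKM (log scale) of the 15 collagen genes that averaged 10 or more in a group, with a point for each library and a line at the group's mean. Col11a1, Col5a2, Col4a1 and Col4a2 sit lowest in SB431542-treated iCDCs, while Col6a1 and Col6a2 sit highest there.

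The first comparison asked how collagen expression differed between iCDCs and primary CDCs. Most of the collagen genes that differed were lower in iCDCs than in primary CDCs, by less than 2-fold in all but Col15a1, whereas both major chains of type IV collagen were higher. Of 22 tested genes, 9 were lower and 3 were higher at an adjusted p under 0.05 (edgeR's quasi-likelihood test, Benjamini-Hochberg adjustment over all genes tested), against 9.21% and 7.21% of all 13752 genes tested. By a log2 fold change of 1 or more, 1 was lower and 0 were higher, against 2.71% and 1.02% of all genes. The lower one, Col15a1, passed the filter on low counts only through the primary CDC libraries. The median log2 fold change of the 22 genes was -0.33, and that of all genes tested was -0.00. Without iCDC replicate 3, 13 were lower and 5 higher, whereas without iCDC replicate 2 or any 1 primary CDC library 4 were lower and 2 higher, and with all 9 libraries in the fit 3 were lower and 1 higher. Counts over all genes moved too, from 1266 lower and 992 higher of 13752 to 2287 and 2180 of 14095 without iCDC replicate 3. They were 1058 and 771 of 14067 without iCDC replicate 2, and 463 and 208 of 14210 with all 9 libraries. Without 1 primary CDC library they were 676 to 691 and 360 to 374. The calls of Col1a1, Col6a1, Col8a1 and Col16a1 were lost under 8 or more of 15 other settings each, those of Col11a1 and Col4a2 under none. That of Col15a1 was lost under none of the settings that tested it. Col15a1 was not tested where a minimum count was required in each library, because its iCDC counts were too low.

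The second comparison set SB431542-treated iCDCs against iCDCs. The chains split into those that rose and those that fell: both type VI chains, Col3a1, Col4a6 and Col28a1 rose, while Col11a1, Col5a2, Col4a1 and Col4a2 fell. Of 21 tested genes, 9 were higher and 6 lower, against 16.0% and 14.0% of all 13559 genes tested. At a log2 fold change of at least 1, 5 were higher and 5 lower, against 6.94% and 3.64%. Among the 5 higher, Col15a1 (3, 3 and 5 counts in iCDCs) and Col28a1 (7, 14 and 8) passed the filter on low counts only through the treated libraries. Genes let in this way could hardly be called lower. The median log2 fold change of the 21 genes was 0.41, beside 0.00 over all genes tested. Without treated replicate 2, 17 of 25 tested genes were higher and 6 lower, and with iCDC replicate 3 left out as well, 18 were higher and 7 lower. Counts over all genes grew too, from 2164 higher and 1897 lower of 13559 to 3537 and 3464 of 13955 without treated replicate 2. With both left out they were 4526 and 4425 of 13867. The 9 higher genes fell to 3 without iCDC replicate 1, to 4 without iCDC replicate 2 or treated replicate 1 and to 5 without treated replicate 3. Over all genes, the higher ones fell to 984 of 13927 without iCDC replicate 1 and 1045 of 13983 without iCDC replicate 2. They were 1058 of 13783 without treated replicate 1 and 1121 of 13774 without treated replicate 3. The calls of Col3a1, Col4a6 and Col12a1 were lost without iCDC replicate 1 or 2 and without treated replicate 1 or 3, with adjusted p up to 0.0812, 0.0726 and 0.161, and that of Col16a1 without iCDC replicate 1 or 2 or treated replicate 1, with adjusted p up to 0.0645. That of Col28a1 was lost without iCDC replicate 1 or 3, with adjusted p up to 0.0674, that of Col8a1 without iCDC replicate 2 or treated replicate 1, with adjusted p up to 0.0654, and that of Col7a1 without iCDC replicate 1, with an adjusted p of 0.0518. Those of Col11a1, Col5a2, Col4a1, Col4a2, Col6a1 and Col6a2 passed in every setting run. That of Col15a1 passed in every setting that tested it. With 3, 3 and 5 counts in iCDCs, Col15a1 was not tested where a minimum count was required in each library. The SB431542-treated group was then set against primary CDCs, from which it differs by immortalization, selection, time in culture and the inhibitor. Of 24 tested genes, 6 were higher and 7 lower, against 17.9% and 17.0% of all 14015 genes tested, and 5 and 4 at a log2 fold change of at least 1, against 5.34% and 4.15%. They had a median log2 fold change of -0.04 beside 0.01 over all genes. Col20a1, higher, and Col27a1, lower, passed the filter on low counts only through the group where each had more counts. Without treated replicate 2, 14 of 26 collagen genes were higher and 9 lower. Counts over all genes grew too, from 2503 higher and 2378 lower of 14015 to 4552 and 4636 of 14345. The calls of Col28a1 and Col7a1 were lost whichever 1 primary CDC library was left out, with adjusted p up to 0.118 and 0.119. They were also lost without treated replicate 1, and that of Col28a1 without treated replicate 3. These comparisons share libraries with each other, so their values are given side by side and were not tested against each other. The plot of fold changes gives the named genes in all of them.

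**Figure D2:**
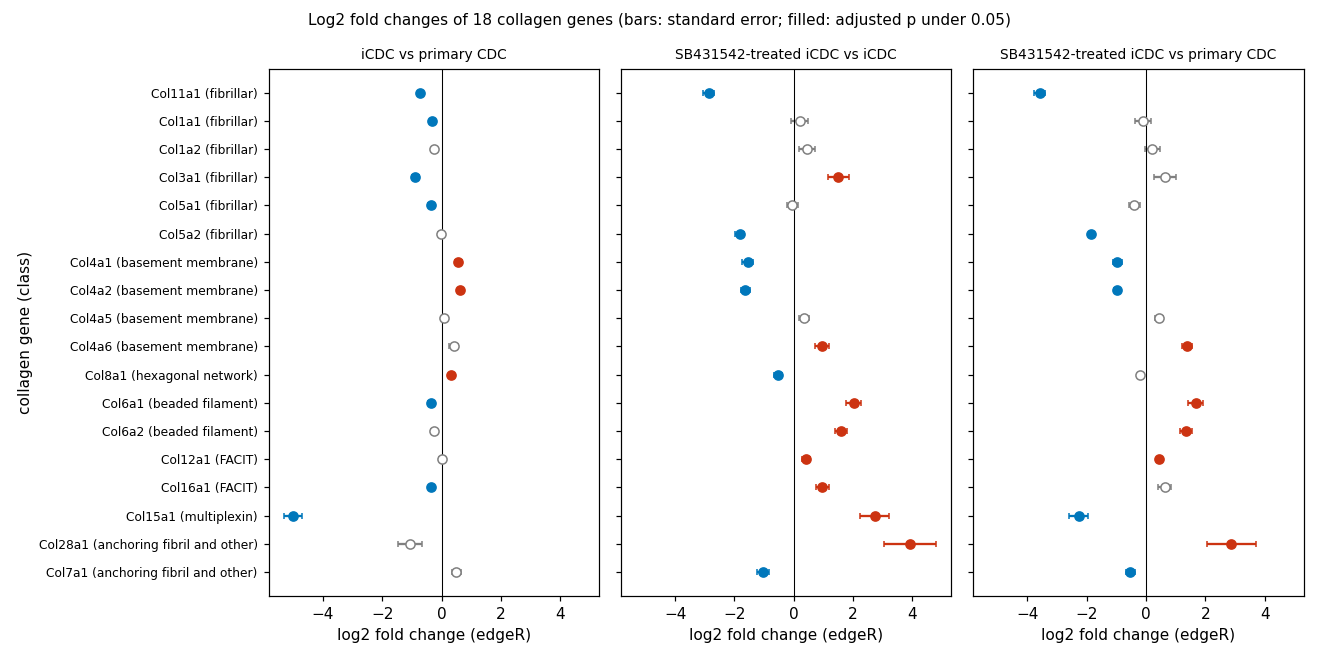
Log2 fold change with its standard error (edgeR) of 18 collagen genes in the 3 comparisons, filled where the adjusted p was under 0.05 (red higher, blue lower in the first-named group) and open otherwise. In SB431542-treated iCDCs against iCDCs, Col11a1 fell by 2.87 and Col6a1 rose by 2.02 on the log2 scale.

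The inhibitor's known targets give a check of the treated libraries. Of 10 TGF-β target genes, all tested, 7 were lower and 1 higher in SB431542-treated iCDCs than in iCDCs, against 14.0% and 16.0% of all genes tested. Pmepa1, a feedback inhibitor of the pathway, fell by 4.29 on the log2 scale (SE 0.31, adjusted p = 0.000350), Ctgf, a matricellular factor, fell by 3.36 (SE 0.36, adjusted p = 0.00102), Acta2, smooth muscle actin, fell by 2.56 (SE 0.45, adjusted p = 0.00581) and Smad7, an inhibitory SMAD, fell by 1.78 (SE 0.22, adjusted p = 0.00176). Against primary CDCs, 7 of the 10 were lower and none higher, against 17.0% and 17.9% of all genes tested. Both counts of 7 include Ltbp2, named after its values were seen, with 1, 78 and 1 counts in treated iCDCs. It passed the filter on low counts only through the untreated libraries, so it could hardly be called higher. The 1 target that was higher than in iCDCs was Tgfbi, named after its values were seen, at 0.644, 0.661 and 0.518 FPKM in iCDCs and 9.995, 2.06 and 8.98 in treated iCDCs. In the second treated library 9 of the 10 targets lay between the iCDC mean and the other treated libraries, and the same held for 10 of the 18 named collagen genes. This position was not counted over all genes, and the 18 were named in part by their fold changes. Neither count can therefore be read as particular to its list. What set this library apart was not tested.

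**Figure D3:**
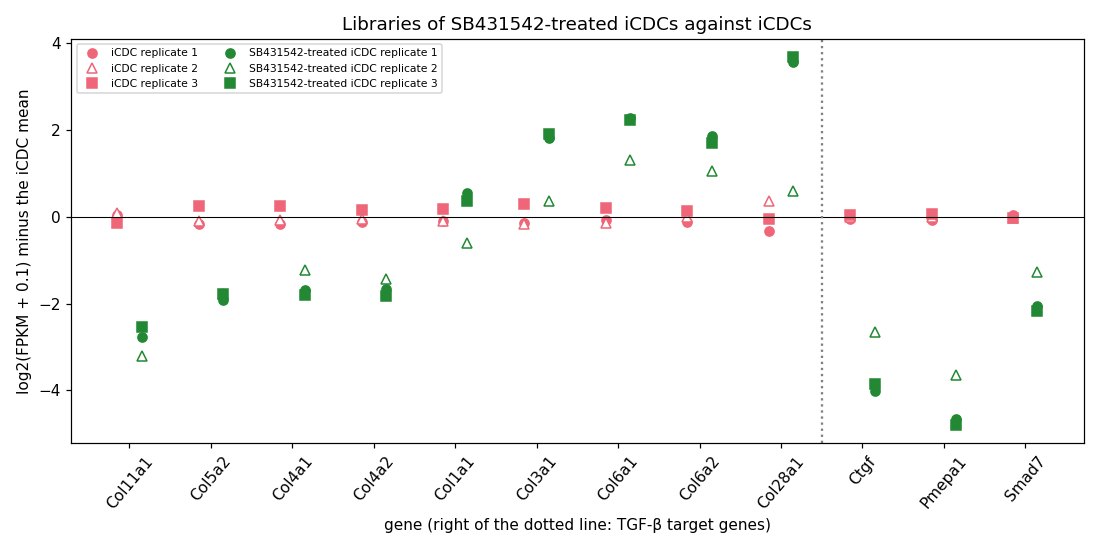
Log2(FPKM + 0.1) minus the iCDC mean for 9 collagen genes and, right of the dotted line, 3 TGF-β target genes, in each iCDC (red) and SB431542-treated iCDC (green) library, with open triangles for replicate 2. Treated replicate 2 lies nearer to the iCDCs for Col6a1 and Col3a1, among others, and farther from them for Col11a1.

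Promoter windows of 3 genes that moved in opposite directions are shown for their sequence: Col11a1, the fibrillar chain that fell most with SB431542, and Col6a2 and Col3a1, which rose. Each is the 250 bases before the RefSeq start (GRCm38.p6), which equals the start of the gene in the deposited table, read 5′ to 3′ on the gene's strand. They lie at chr3:114030290-114030539 (plus strand), chr10:76623631-76623880 (minus strand) and chr1:45311288-45311537 (plus strand). Capitals mark CAGAC, the sequence that a SMAD protein can bind, CCAAT and TATAAA, each on either strand.
Col11a1: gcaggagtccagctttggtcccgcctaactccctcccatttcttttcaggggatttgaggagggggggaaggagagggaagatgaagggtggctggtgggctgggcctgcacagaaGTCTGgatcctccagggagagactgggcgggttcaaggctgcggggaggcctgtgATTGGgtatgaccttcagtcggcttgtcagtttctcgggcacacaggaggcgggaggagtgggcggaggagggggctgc
Col6a2: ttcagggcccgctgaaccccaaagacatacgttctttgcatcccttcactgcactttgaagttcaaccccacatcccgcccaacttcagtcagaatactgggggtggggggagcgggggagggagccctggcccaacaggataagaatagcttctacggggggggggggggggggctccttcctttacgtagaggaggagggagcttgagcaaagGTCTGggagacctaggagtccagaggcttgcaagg
Col3a1: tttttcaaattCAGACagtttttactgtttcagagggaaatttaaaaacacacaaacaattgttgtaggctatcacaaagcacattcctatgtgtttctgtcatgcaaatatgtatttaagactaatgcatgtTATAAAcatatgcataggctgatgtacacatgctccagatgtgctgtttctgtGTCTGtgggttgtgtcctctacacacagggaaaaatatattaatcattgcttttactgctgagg
The window of Col11a1 holds 1 CAGAC and 1 CCAAT, that of Col6a2 holds 1 CAGAC, and that of Col3a1 holds 2 CAGAC and 1 TATAAA. RefSeq gives Col6a2 another start too, and the window before it holds none of these motifs. Over all 32851 windows of 250 bases, 42.2% held CAGAC, 33.8% CCAAT and 12.4% TATAAA. RefSeq gave windows for 35 of the 44 collagen genes, and of their 38 windows 17 held CAGAC, 13 CCAAT and 5 TATAAA.

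Type I collagen, a trimer of 2 Col1a1 chains and 1 Col1a2 chain, is the main protein of fibrils. Col1a1 (chr11:94936224-94953042) was at 651, 637 and 654 FPKM in primary CDCs, 493, 490 and 601 FPKM in iCDCs and 772, 346 and 677 FPKM in SB431542-treated iCDCs. All iCDC libraries lay below all primary libraries, and the treated libraries spanned both groups. From primary CDCs to iCDCs, Col1a1 fell by 0.31 on the log2 scale (SE 0.09, adjusted p = 0.0459), and its change in treated iCDCs against iCDCs was 0.19 (SE 0.28, adjusted p = 0.618). Without treated replicate 2 that change became 0.47 (adjusted p = 0.0131). Col1a2 was at 274, 259 and 271 FPKM in primary CDCs, 220, 219 and 248 in iCDCs and 375, 186 and 365 in treated iCDCs. Its log2 fold changes of -0.24 (SE 0.07, adjusted p = 0.0565) in iCDCs against primary CDCs and 0.44 (SE 0.26, adjusted p = 0.220) in treated iCDCs against iCDCs did not pass. Without iCDC replicate 3 the former became -0.30 (adjusted p = 7.47e-06), and without treated replicate 2 the latter became 0.70 (adjusted p = 0.000567). The Col1a1 to Col1a2 ratio of FPKM was 2.42 ± 0.04 in primary CDCs, 2.30 ± 0.11 in iCDCs and 1.93 ± 0.11 in SB431542-treated iCDCs (mean ± SD, n = 3), and the treated libraries did not overlap either other group. With the length of the longest coding transcript in place of the deposited gene length, which is 12426 bases for Col1a2 against 5348, the ratios were 1.15, 1.10 and 0.917.

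Col3a1 encodes type III collagen, a homotrimer that is laid down with type I in soft tissue. Its FPKM was 88.7, 96.4 and 102 in primary CDCs, 46.5, 46.4 and 64.0 in iCDCs and 182, 66.2 and 193 in SB431542-treated iCDCs. The iCDC libraries were the lowest, the second treated library was just above them, and the other treated libraries were the highest of all. Between primary CDCs and iCDCs, Col3a1 fell by 0.89 (SE 0.12, adjusted p = 0.00182) and rose by 1.51 with SB431542 (SE 0.37, adjusted p = 0.0188). Its value in treated iCDCs against primary CDCs, 0.63 (SE 0.36, adjusted p = 0.214), did not pass, and without treated replicate 2 it became 0.98 (adjusted p = 7.63e-12).

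Types V and XI nucleate fibrils and set their diameter. Col11a1 had FPKM values of 20.4, 20.2 and 20.4 in primary CDCs, 12.8, 13.2 and 11.3 in iCDCs and 1.74, 1.26 and 2.05 in SB431542-treated iCDCs. The groups did not overlap, and the values fell from primary CDCs to iCDCs to treated iCDCs. Col11a1 fell by 0.73 on the log2 scale in iCDCs against primary CDCs (SE 0.07, adjusted p = 0.000272). In treated iCDCs it fell by 2.87 against iCDCs (SE 0.19, adjusted p = 0.000315) and fell by 3.59 against primary CDCs (SE 0.18, adjusted p = 7.76e-05), the former a 7.33-fold difference. Col5a2 followed another course, at 174, 168 and 170 FPKM in primary CDCs, 150, 158 and 198 in iCDCs and 44.6, 48.5 and 48.5 in treated iCDCs. Primary CDCs and iCDCs overlapped, and all treated libraries were far below both. Col5a2 fell by 1.83 with SB431542 against iCDCs (SE 0.15, adjusted p = 0.000395) and fell by 1.84 against primary CDCs (SE 0.08, adjusted p = 4.49e-05), while iCDCs against primary CDCs gave -0.03 (SE 0.10, adjusted p = 0.871), and -0.16 without iCDC replicate 3 (adjusted p = 0.00295). Its partner in type V collagen, Col5a1, was at 70.0, 70.7 and 69.7 FPKM in primary CDCs, 51.3, 51.8 and 61.8 in iCDCs and 64.1, 37.9 and 56.5 in treated iCDCs. The iCDC libraries were all below the primary ones, and the treated libraries overlapped the iCDC libraries. In iCDCs Col5a1 fell by 0.36 (SE 0.08, adjusted p = 0.0154), and its change with SB431542 against iCDCs was -0.04 (SE 0.20, adjusted p = 0.876). The former call was lost whichever 1 primary CDC library was left out and without iCDC replicate 2. It was also lost with all 9 libraries in the fit, with adjusted p up to 0.255. The ratio of Col5a1 to Col5a2 was 0.411 ± 0.009 in primary CDCs, 0.327 ± 0.015 in iCDCs and 1.13 ± 0.33 in SB431542-treated iCDCs (FPKM, mean ± SD, n = 3), without overlap of the treated libraries and the others.

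The remaining fibrillar genes were rare. Col5a3, the third chain of type V, was at 0.641, 0.797 and 0.818 FPKM in primary CDCs and 0.524, 0.286 and 0.420 in iCDCs, where it fell by 0.87 (SE 0.22, adjusted p = 0.0275). Col27a1 was at 0.160, 0.185 and 0.194 FPKM in primary CDCs and 0.0219, 0.0840 and 0.0425 in treated iCDCs, where it fell by 1.81 (SE 0.40, adjusted p = 0.0130). Both genes were named after their values were seen. Col11a2, the partner of Col11a1, had 2 to 19 counts per library and passed no test. Over the class of 11 fibrillar genes, 9 were tested in iCDCs against primary CDCs, with 5 lower and none higher, against 9.21% and 7.21% of all genes tested. With SB431542 against iCDCs, 8 were tested, of which 2 were lower (Col11a1 and Col5a2) and 1 higher (Col3a1), against 14.0% and 16.0%.

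Type IV collagen, the network former of basement membranes, is built mostly from Col4a1 and Col4a2, a pair of genes transcribed head to head on chromosome 8 whose annotated ends overlap by 22 bases. Col4a1 (chr8:11198423-11312826) was at 126, 122 and 122 FPKM in primary CDCs, 163, 174 and 219 in iCDCs and 56.6, 78.3 and 52.4 in SB431542-treated iCDCs. Col4a2 (chr8:11312805-11449287) was at 92.7, 91.2 and 88.7 FPKM in primary CDCs, 131, 137 and 157 in iCDCs and 44.2, 51.9 and 40.0 in treated iCDCs. Both genes were highest in iCDCs and lowest after treatment, with no overlap between groups. Col4a1 was higher in iCDCs than in primary CDCs by 0.57 (SE 0.10, adjusted p = 0.00664) and Col4a2 by 0.63 (SE 0.08, adjusted p = 0.000992). With SB431542 Col4a1 fell by 1.56 (SE 0.19, adjusted p = 0.00161) and Col4a2 fell by 1.63 (SE 0.14, adjusted p = 0.000572) against iCDCs. Against primary CDCs, Col4a1 fell by 0.98 (SE 0.15, adjusted p = 0.00354) and Col4a2 fell by 0.99 (SE 0.10, adjusted p = 0.000990).

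Col4a5 and Col4a6 are the type IV chains of a second head-to-head pair, on the X chromosome. Col4a6 (chrX:141165403-141474076) was at 8.03, 8.12 and 8.09 FPKM in primary CDCs, 8.99, 9.65 and 14.0 in iCDCs and 24.5, 15.3 and 22.7 in SB431542-treated iCDCs. The groups did not overlap, and the treated libraries were the highest. Col4a6 rose by 0.95 against iCDCs (SE 0.22, adjusted p = 0.0155) and by 1.38 against primary CDCs (SE 0.17, adjusted p = 0.00174). Col4a5 was at 28.0, 27.9 and 27.1 FPKM in primary CDCs, 27.2, 28.7 and 33.2 in iCDCs and 40.7, 28.8 and 42.2 in treated iCDCs, with log2 fold changes of 0.34 (SE 0.17, adjusted p = 0.154) against iCDCs and 0.44 (SE 0.15, adjusted p = 0.0551) against primary CDCs. Without treated replicate 2 these became 0.49 (adjusted p = 0.00397) and 0.59 (adjusted p = 8.41e-10). The treated values of Col4a5 in replicates 1 and 3 were above every iCDC library, and replicate 2 lay among them. The Col4a1 to Col4a5 ratio of FPKM was 4.47 ± 0.07 in primary CDCs, 6.22 ± 0.33 in iCDCs and 1.79 ± 0.82 in treated iCDCs (mean ± SD, n = 3), without overlap between groups. Col4a3 and Col4a4, the remaining type IV chains, had 0 to 9 and 2 to 17 counts per library.

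Type VI collagen links cells to the surrounding matrix, and both of its tested chains rose with SB431542. Col6a1 (chr10:76708792-76726168) was at 28.5, 29.6 and 30.7 FPKM in primary CDCs, 22.2, 20.9 and 27.0 in iCDCs and 113, 57.4 and 110 in SB431542-treated iCDCs. Col6a2, its neighbor on chromosome 10 (76595762 to 76623630), was at 8.38, 8.33 and 9.23 FPKM in primary CDCs, 6.60, 7.19 and 7.96 in iCDCs and 26.4, 15.1 and 23.7 in treated iCDCs. Every treated library exceeded every other library for both genes, and treated replicate 2 was the lowest of the 3. Col6a1 rose by 2.02 against iCDCs (SE 0.26, adjusted p = 0.00184) and by 1.67 against primary CDCs (SE 0.25, adjusted p = 0.00334). Col6a2 rose by 1.60 (SE 0.20, adjusted p = 0.00184) and by 1.34 (SE 0.20, adjusted p = 0.00335), respectively. In iCDCs against primary CDCs, Col6a1 fell by 0.36 (SE 0.09, adjusted p = 0.0299), and Col6a2 gave -0.27 (SE 0.08, adjusted p = 0.0531), or -0.34 without iCDC replicate 3 (adjusted p = 0.000600). Col6a3, which encodes the third chain of the usual type VI heterotrimer, had 0 to 7 counts in every library and at most 0.0294 FPKM. Its partners reached 113 and 26.4 FPKM in the same libraries.

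Among the FACIT collagens, Col12a1 and Col16a1 were the abundant members. Col16a1 was at 17.7, 17.6 and 18.8 FPKM in primary CDCs, 14.1, 12.6 and 16.4 in iCDCs and 32.3, 18.6 and 31.8 in SB431542-treated iCDCs. Every treated library exceeded every iCDC library, and treated replicate 2 lay within the primary CDC values. From primary CDCs to iCDCs it fell by 0.34 (SE 0.09, adjusted p = 0.0344) and rose with SB431542 by 0.96 against iCDCs (SE 0.22, adjusted p = 0.0143). Col12a1, which decorates type I fibrils, was at 12.9, 12.7 and 11.8 FPKM in primary CDCs, 10.995, 13.1 and 14.4 in iCDCs and 17.1, 16.0 and 17.5 in treated iCDCs. The treated libraries lay above the others, and primary CDCs and iCDCs overlapped. Col12a1 rose by 0.41 against iCDCs (SE 0.13, adjusted p = 0.0411) and by 0.44 against primary CDCs (SE 0.08, adjusted p = 0.00548). Col20a1, named after its values were seen, had 1 to 20 counts per library and was higher in treated iCDCs than in primary CDCs by 1.23 (SE 0.38, adjusted p = 0.0432). Another gene on the same strand overlaps it by 741 bases, with 80 to 149 counts.

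Col15a1, a multiplexin of the zone between basement membrane and fibrils, differed most between iCDCs and primary CDCs among the tested collagen genes. It had 137, 142 and 194 counts in primary CDCs, 3, 3 and 5 in iCDCs and 17, 25 and 39 in SB431542-treated iCDCs. No iCDC library came near a primary library, and the treated libraries lay in between without overlap. In iCDCs against primary CDCs, Col15a1 fell by 5.02 on the log2 scale (SE 0.31, adjusted p = 1.72e-05). In treated iCDCs it rose by 2.72 against iCDCs (SE 0.49, adjusted p = 0.00652) and fell by 2.27 against primary CDCs (SE 0.31, adjusted p = 0.00239). Summed per group, 473 counts in primary CDCs against 11 in iCDCs gave a depth-adjusted ratio of 34.7, with a 95% Clopper-Pearson interval of 19.2 to 69.9 that covers counting error only. Col18a1, the other multiplexin and the source of endostatin, was named after its values were seen. It was at 6.23, 6.10 and 6.66 FPKM in primary CDCs, 3.41, 3.26 and 3.74 in iCDCs and 6.61, 3.996 and 5.999 in treated iCDCs. In iCDCs it fell by 0.88 (SE 0.08, adjusted p = 0.000136) and rose with SB431542 by 0.69 against iCDCs (SE 0.19, adjusted p = 0.0277). The gene Slc19a1 overlaps Col18a1 on the opposite strand by 8825 bases, and the sources used here do not say whether counting used strand.

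A further 3 genes complete the named set. Col8a1, a short-chain collagen of vessel walls, was at 9.44, 9.01 and 9.03 FPKM in primary CDCs, 10.02, 11.7 and 13.4 in iCDCs and 8.02, 7.36 and 8.58 in SB431542-treated iCDCs. The iCDC libraries were the highest and the treated ones the lowest, without overlap. It was higher in iCDCs than in primary CDCs by 0.33 (SE 0.10, adjusted p = 0.0446) and fell with SB431542 by 0.54 (SE 0.13, adjusted p = 0.0172). Col7a1, the anchoring fibril collagen of skin, was at 0.706, 0.733 and 0.745 FPKM in primary CDCs, 1.18, 1.09 and 0.816 in iCDCs and 0.399, 0.527 and 0.570 in treated iCDCs. The treated libraries were below all others. It fell with SB431542 by 1.04 against iCDCs (SE 0.21, adjusted p = 0.0103). Col28a1, a rare collagen of nerve and skin, had 34, 27 and 18 counts in primary CDCs, 7, 14 and 8 in iCDCs and 208, 23 and 233 in treated iCDCs. Its log2 fold change of 3.93 against iCDCs (SE 0.88, adjusted p = 0.0139) passed, as did that of 2.88 against primary CDCs (SE 0.82, adjusted p = 0.0329). Treated replicate 2 was above every iCDC library but overlapped the primary CDC libraries, far below the other treated libraries.

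By summed FPKM, the fibrillar class made up 78.9 to 79.4% of collagen in primary CDCs, 70.0 to 71.0% in iCDCs and 70.0 to 79.4% in SB431542-treated iCDCs. The basement membrane class made up 15.2 to 15.8%, 24.0 to 25.0% and 9.16 to 17.8%, and the beaded filament class 2.28 to 2.46%, 2.01 to 2.09% and 7.40 to 7.87%, respectively. The beaded filament share was thus similar in all treated libraries, including replicate 2, whose total collagen was lower. These shares are given without a test.

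**Figure D4:**
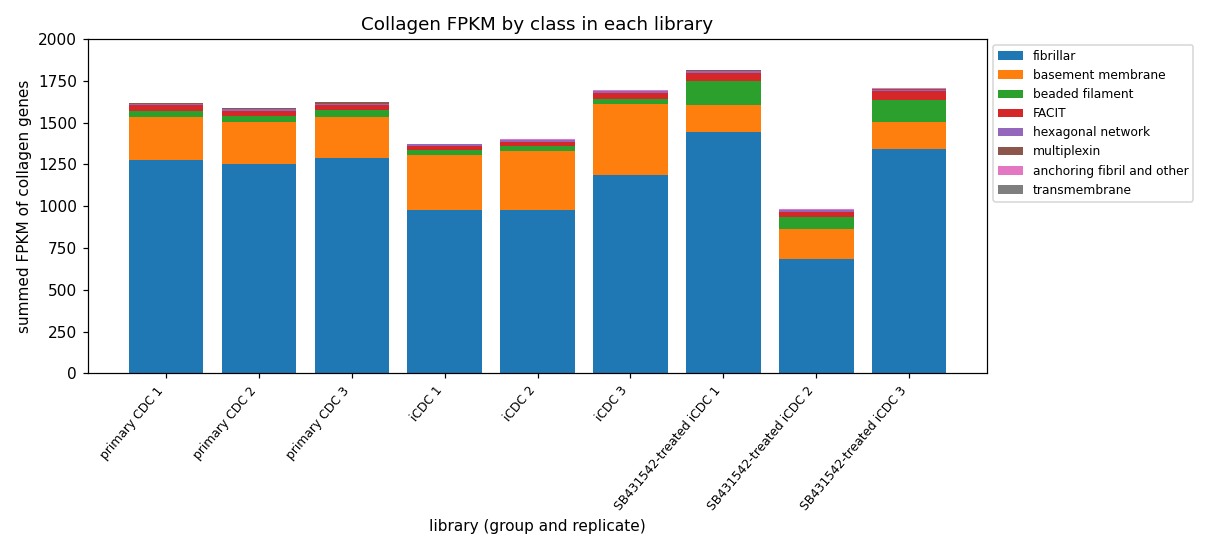
Summed FPKM of collagen genes by class (stacked colors) in each of the 9 libraries. Treated replicate 2 has the lowest total, 980 FPKM, and the basement membrane class is largest in iCDCs, 330 to 423 FPKM.

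The genes that make and assemble collagen were examined as a list of 36, covering prolyl and lysyl hydroxylases, chaperones, secretion factors, propeptide proteases and lysyl oxidases. In iCDCs against primary CDCs 2 of 33 tested were higher and 9 lower, against 7.21% and 9.21% of all genes tested. In SB431542-treated iCDCs against iCDCs 5 of 32 were higher and 6 lower, against 16.0% and 14.0%. In treated iCDCs against primary CDCs 4 of 33 were higher and 14 lower, against 17.9% and 17.0%. Tll1, a tolloid-like protease that removes procollagen propeptides, was at 13.0, 12.3 and 11.6 FPKM in primary CDCs, 8.28, 8.77 and 6.46 in iCDCs and 0.191, 0.337 and 0.121 in treated iCDCs. The treated libraries were far below all others, and Tll1 fell by 5.79 against primary CDCs (SE 0.27, adjusted p = 6.25e-05) and fell by 5.14 against iCDCs (SE 0.31, adjusted p = 0.000315). Fkbp14, a chaperone of the endoplasmic reticulum, fell by 1.07 (SE 0.18, adjusted p = 0.00516) and Sec23a, a coat protein of secretory vesicles, fell by 1.05 (SE 0.12, adjusted p = 0.00151) in treated iCDCs against primary CDCs. Pcolce2, an enhancer of propeptide removal, fell by 1.03 against iCDCs (SE 0.25, adjusted p = 0.0183), with 22.7, 21.9 and 30.5 FPKM in iCDCs and 9.52, 17.5 and 9.48 in treated iCDCs. Of 10 collagen receptor genes, 7 were tested. In iCDCs against primary CDCs 1 was higher and 3 were lower, beside 7.21% and 9.21% of all genes tested. In treated iCDCs 3 were higher and 1 lower than in iCDCs, beside 16.0% and 14.0%. Relative to primary CDCs 3 were higher and 3 lower in treated iCDCs, beside 17.9% and 17.0%.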

How the data were processed

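RNA-seq libraries of primary CDCs, iCDCs and SB431542-treated iCDCs were grouped by their sample labels. The authors deposited raw read counts per gene and FPKM values, each the quotient of the count by gene length and a library constant except for 1 value, in no collagen gene. The submitters' processing notes name Bowtie2 2.0.6, TopHat2 2.0.9 and mm9, while the deposited coordinates equal those of GENCODE M21 on GRCm38 for 53462 of 54532 genes and all 44 collagen genes. The counting program and strand setting are not given in the sources used here. The labels and the study's methods name different library kits and sequencers. The deposited columns of the authors' own DESeq comparisons, and the separate gene annotation, were not used.

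Counts were fitted over all genes with edgeR 4.0.16 in R 4.3.3, using TMM normalization, filterByExpr (minimum count 10, minimum total 15), the quasi-likelihood test, and only the 6 libraries of the groups compared, with Benjamini-Hochberg adjustment and a threshold of 0.05. The standard error is the log2 fold change divided by the square root of F. The common biological coefficient of variation was 0.0919 for iCDCs against primary CDCs, 0.171 for SB431542-treated iCDCs against iCDCs and 0.144 for SB431542-treated iCDCs against primary CDCs. FPKM levels are per deposited gene length and carry no test.

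Collagen genes are named where they averaged 10 FPKM or more in a group, or where the adjusted p was under 0.05 with a log2 fold change of at least 1 and the higher group averaged 1 FPKM or more. Chains that share a trimer with these are given by counts. List genes are named at the same p and fold thresholds where the higher group averaged 10 FPKM or more. The members, lists and classes were chosen with earlier results of these data known, so no list was tested. Alternatives were DESeq2 1.42.0, RLE and upper-quartile normalization, no count filter, a minimum of 10 counts in each library, 1 fit of all 9 libraries, the replicate number as a block, each library left out, a log2 fold change of at least 1, and limma 3.58.1 on log2(FPKM + 1) and log2(FPKM + 0.1). Leaving out both libraries that stood apart, and the longest coding transcript's length, were added after seeing the data.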

Additional observations from a re-analysis of the deposited data

How the results depend on the processing

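Each named gene was followed through each comparison and each other setting in which it was tested. Of these combinations, 700 kept their direction and side of the threshold, 77 lost the call, 38 gained one and 9 changed sign. The settings share libraries, so the combinations are not independent of each other. In iCDCs against primary CDCs the 3 higher genes became 5 with DESeq2, 5 with no filter, 1 with all 9 libraries in the fit, 0 at a log2 fold change of at least 1 and 2 to 5 with a library left out, and the 9 lower genes became 3 with all 9 libraries, 1 at that fold change and 4 to 13 with a library left out (4 without any primary CDC library or without iCDC replicate 2, 13 without iCDC replicate 3). In SB431542-treated iCDCs against iCDCs the 9 higher genes became 5 at that fold change, 18 without both libraries that stood apart and 3 to 17 with 1 left out (3 without iCDC replicate 1, 4 without iCDC replicate 2 or treated replicate 1, 5 without treated replicate 3, 17 without treated replicate 2). The 6 lower genes became 5 to 6 with 1 library left out and 7 without both. Against primary CDCs the 6 higher genes became 10 with no filter and 4 to 14 with a library left out (14 without treated replicate 2), and the 7 lower genes 4 at that fold change and 5 to 9 with a library left out. Counts over all genes also moved when a library was left out, as given in part with the first counts. The cause of these shifts was not tested. The log2 fold changes that changed sign are given with their range over the fits that left out a library. In iCDCs against primary CDCs Col12a1 ran from -0.065 (without iCDC replicate 3) to 0.12 and was -0.01 without primary replicate 3, and Col5a2 ran from -0.16 to 0.049 (without iCDC replicate 1) and was 0.02 without iCDC replicate 2. In treated iCDCs against iCDCs Col1a1 ran from -0.029 (without treated replicate 1) to 0.47 (without treated replicate 2), and Col5a1 ran from -0.20 to 0.14 (without treated replicate 2), with 0.03 without iCDC replicate 3 and 0.23 without both libraries that stood apart (adjusted p = 0.00186). Against primary CDCs Col1a1 ran from -0.33 to 0.17 (without treated replicate 2, adjusted p = 0.00409). With the longest coding transcript's length the Col1a1 to Col1a2 ratios were 1.15, 1.10 and 0.917, the Col4a1 to Col4a5 ratios 4.90 and 6.83 in primary CDCs and iCDCs, and the Col5a1 to Col5a2 ratios 0.287, 0.228 and 0.787, in the group order of the report. With the replicate number as a replicate block, 2 genes were higher and 9 lower in iCDCs against primary CDCs, 8 and 6 in treated iCDCs against iCDCs, and 4 and 6 in treated iCDCs against primary CDCs. Deviations of same-numbered libraries correlated at -0.21 to 0.03 across 14210 genes, so the numbers were taken as names only.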

Other observations

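Collagen receptors and cross-linking enzymes held further differences, in genes named after their values were seen. Itga11, the integrin chain that binds fibrillar collagen, was at 3.46, 3.64 and 3.25 FPKM in primary CDCs, 0.338, 0.427 and 0.431 in iCDCs and 0.800, 0.445 and 0.529 in SB431542-treated iCDCs. It fell by 3.13 on the log2 scale in iCDCs (SE 0.14, adjusted p = 1.99e-06, edgeR), in 3 of 3 libraries. Itga1, another collagen-binding integrin chain, was at 0.0932, 0.0720 and 0.0560 FPKM in iCDCs and 0.328, 0.274 and 0.372 in treated iCDCs, and it rose by 2.13 (SE 0.26, adjusted p = 0.00160, edgeR). Ddr2, a collagen receptor kinase, rose by 0.79 against iCDCs (SE 0.12, adjusted p = 0.00383, edgeR). The 1 tested receptor gene called lower in that comparison was Itgb1, an integrin chain. It was at 399, 427 and 445 FPKM in iCDCs and 244, 259 and 244 in treated iCDCs. Itgb1 fell by 0.75 (SE 0.12, adjusted p = 0.00385, edgeR). Lox, the lysyl oxidase that cross-links collagen, was at 237, 230 and 229 FPKM in primary CDCs and 140, 159 and 171 in iCDCs. It fell by 0.58 in iCDCs (SE 0.08, adjusted p = 0.00169, edgeR), whereas Loxl4, of the same family, rose by 0.36 (SE 0.09, adjusted p = 0.0269, edgeR). In treated iCDCs Lox was at 213, 43.8 and 202 FPKM, so that replicate 2 lay below every iCDC library and the others above. Its log2 fold change against iCDCs, -0.02 (SE 0.48, adjusted p = 0.978, edgeR), did not pass.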
